A study of Arabidopsis thaliana with 9 samples.

Results

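The genes described here are those that changed on average over 2 ascorbate-deficient Arabidopsis mutants, *vtc2-4* and *vtc3-3*, relative to the wild type, and that lay on the same side of the wild type in every mutant library. RNA-seq read counts of shoots were used, with the effect of each mutant weighted equally. A gene counted as a member when edgeR's quasi-likelihood test of the mean effect gave a Benjamini-Hochberg adjusted p under 0.05, and when the normalized counts of all 6 mutant libraries were above, or all below, those of both wild-type libraries used. Of 28642 genes in the table, 17631 passed the filter on low counts and were tested, and 337 met both conditions, 126 of them higher and 211 lower in the mutants. The study ran this transcriptome comparison to learn more of what VTC3 does. All 9 samples were shoots of seedlings grown for 2 weeks on agar medium with sucrose, kept in darkness for 2 d, and then returned to growth light of 100 µmol photons m-2 s-1 for 6 h, with 3 replicates of the wild type, 3 of *vtc2-4* and 3 of *vtc3-3*. Dark and light treatment were therefore common to all groups, and no untreated group entered the comparison. Each mutant is represented by 1 T-DNA insertion allele, so an effect of the targeted gene and of any other lesion in that line cannot be told apart.

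Ascorbate is the main soluble antioxidant of leaves. It reduces hydrogen peroxide through ascorbate peroxidases, is regenerated through monodehydroascorbate, dehydroascorbate and glutathione reductases, and serves as a cofactor of many oxygenases. *VTC2* encodes GDP-L-galactose phosphorylase, the committed and rate-limiting step of its synthesis, while *VTC3* encodes a protein with a kinase and a protein phosphatase domain that is needed for ascorbate to accumulate in the light. Cells handle reactive carbonyls and foreign compounds with a different set of proteins, in which cytochromes P450 and reductases modify the molecule, glutathione transferases and UDP-glycosyltransferases conjugate it, and ABCC and MATE transporters move the conjugate into the vacuole or out of the cell.

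Each library held between 4399733 and 7567492 gene reads. Wild-type replicate 1 did not resemble the other 8 libraries. Its average correlation with them over log2 CPM (counts scaled to the TMM-normalized library size) was 0.91 against 0.973 to 0.976. For each library, the deviation of log2 CPM from the median of the other 8 was correlated with log2 exon length. This gave -0.562 for wild-type replicate 1 against -0.0315 to 0.165 for the others, and 1.62% of its gene reads were intronic against 1.12% to 1.26%. It was left out of the main fit and added as a check, so the wild type rests on 2 libraries. The summed level of 18 nuclear photosynthesis genes was 48800 to 49300 CPM in the 2 wild-type libraries, 50100 to 53500 CPM in *vtc2-4* and 47500 to 50400 CPM in *vtc3-3*, so photosynthesis transcripts were abundant in all shoots, but 30000 CPM in wild-type replicate 1. The 10 root markers summed to no more than 12.8 CPM in any library, with 5 of them at 0 throughout, and the 10 seed and flower markers to no more than 13.8 CPM. Root markers reached 8.75 to 12.8 CPM in *vtc3-3*, 2.74 to 6.83 CPM in *vtc2-4* and 3.62 to 8.35 CPM in the wild type. Most of these sums came from 1 gene, the phosphate transporter gene *PHT1;4*, the only root marker that passed the low-count filter. It was at 7.95 and 3.11 CPM in wild-type replicates 2 and 3, 6.68, 3.09 and 2.74 for *vtc2-4*, and 8.62, 10.3 and 12.8 for *vtc3-3*. The part of root markers in any result was not tested. In bulk shoots, fewer cells of a type and less RNA per cell cannot be told apart.

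The targeted genes followed their labels. *VTC2* (AT4G26850) was at 775 and 776 CPM in wild-type replicates 2 and 3, 6.98, 7.15 and 5.33 for *vtc2-4*, and 698, 694 and 682 for *vtc3-3*. Its level was thus almost lost in *vtc2-4*, with a log2 fold change of -6.9, whereas the value in *vtc3-3* was -0.17 (adjusted p = 0.26). *VTC3* (AT2G40860) was at 18.9 and 19 CPM in wild-type replicates 2 and 3, 16.8, 18.2 and 17.6 for *vtc2-4*, and 4.31, 3.89 and 2.74 for *vtc3-3*, which gives -2.32 in *vtc3-3* and -0.11 in *vtc2-4* (adjusted p = 0.73). Both genes met the membership rule among the lower genes, although each mean was carried by the mutant that lacks it. They are left out of the statements on the other members below, except where all 211 are counted. The actin gene *ACT2* differed little, with a mean effect of -0.02 ± 0.05 (adjusted p = 0.92).

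Of the 17631 genes tested, 424 (2.4%) passed the threshold in the mean of both mutants, 182 higher (1.03%) and 242 lower (1.37%). Whether or not they passed it, 944 genes (5.35%) had all 6 mutant libraries above both wild-type libraries and 1046 (5.93%) had all 6 below. Both conditions were met by 126 higher (0.715%) and 211 lower genes (1.2%), together 1.91% of those tested. The higher members moved further than the lower ones. Their median mean log2 fold change was 0.81, with 49 genes at 2-fold or more, against a median of -0.43 and 12 genes for the lower members, and the median over all genes tested was 0.01. Setting *DOX1*, which had no wild-type read, to its lower bound left the first median where it was.

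The members were not moved equally by both mutants. The higher members had a median of 1.02 on the log2 scale in *vtc2-4* and 0.55 in *vtc3-3*, and the lower members had -0.51 and -0.33. Compared directly between mutants, 89 of the 126 higher members differed, 85 with the larger effect in *vtc2-4*. The difference itself holds no wild-type level, but its normalization and error came from the fit of all 8 libraries. Over all genes tested, 6.76% differed between the mutants, 3.6% higher in *vtc2-4* and 3.15% higher in *vtc3-3*. Of the lower members, 67 of 211 differed, and 64 of these had the larger effect in *vtc2-4*. Taken alone against the same wild-type libraries, 120 of the 126 higher members passed in *vtc2-4* and 27 in *vtc3-3*, and among the lower members 200 passed in *vtc2-4* and 61 in *vtc3-3*. These 2 comparisons share their controls, and over all genes 6.05% passed in *vtc2-4* and 0.681% in *vtc3-3*. Members were chosen on the mean of these same 2 effects, so high shares among them follow in part from the rule and are no separate result. The members with the larger effect in *vtc3-3* were 4 rises, AT4G13495, AT3G28540, the amino acid permease gene *AAP2* and *DGAT3*, and 3 falls, AT1G67105, *MRD1* and *VTC3* itself.

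**Figure D1:**
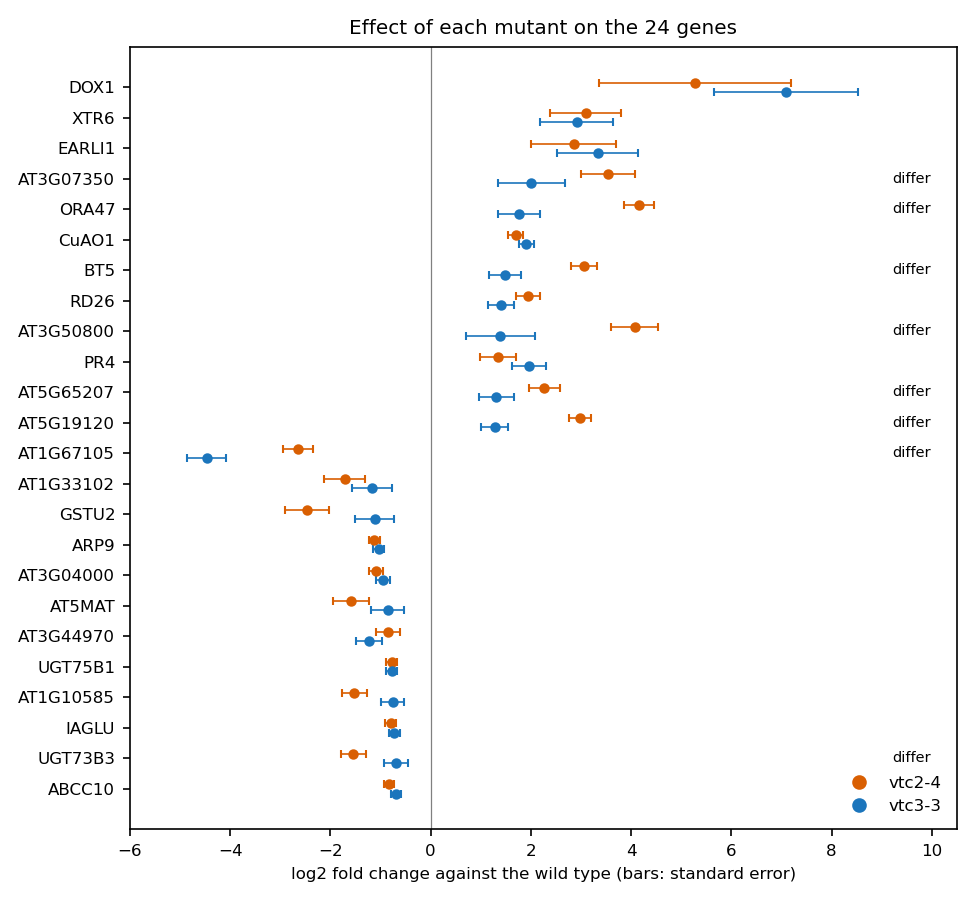
Log2 fold change of each mutant against the wild type (x axis) for the 12 rises and 12 falls with the largest effect in the less affected mutant, with standard errors as bars (3 libraries per mutant, 2 of the wild type). Genes marked "differ" had an adjusted p under 0.05 between the mutants; *CuAO1*, *ARP9*, *UGT75B1*, *IAGLU* and *ABCC10* had nearly the same effect in both, while the fitted values of *DOX1* depend on the prior count because its wild-type libraries had no read.

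The copper amine oxidase gene *CuAO1* (AT1G62810) rose in both mutants. It encodes an enzyme that oxidizes polyamines such as putrescine and releases hydrogen peroxide, and it lies on chromosome 1 from 23257610 to 23262002 of TAIR10.1. Its level was 5.56 and 7.25 CPM in wild-type replicates 2 and 3, 21.1, 21.5 and 20.5 for *vtc2-4*, and 23.6, 24.1 and 25.3 for *vtc3-3*. No mutant library came near the wild-type range, and wild-type replicate 1, at 8.81 CPM, was also below all of them. The mean effect was 1.8 ± 0.14 on the log2 scale (adjusted p = 2e-07 in edgeR's quasi-likelihood test), from 1.7 ± 0.15 in *vtc2-4* and 1.91 ± 0.15 in *vtc3-3*, with no difference detected (adjusted p = 0.28). Of the 15 genes of amine oxidases and polyamine synthesis tested, *CuAO1* was the one that rose, and 1 other, the copper amine oxidase gene AT2G42490, fell slightly (-0.25 ± 0.07, adjusted p = 0.048), a call that was lost in 6 of the 8 fits that left out 1 library and whose direction turned with wild-type replicate 1 added (0.03, adjusted p = 0.94). Of this list 13.3% passed, against 2.4% of all genes, and its median was -0.04.

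Several rises were read from wild-type levels close to the detection limit, and they passed the low-count filter through the mutant libraries. *DOX1*, which encodes a fatty acid alpha-dioxygenase of oxylipin synthesis, had no read in wild-type replicates 2 and 3, against 13, 2 and 1 for *vtc2-4* and 26, 10 and 12 for *vtc3-3*. Against a floor of 3 reads per library this is at least 3.12-fold higher on average. Its *vtc2-4* level was due largely to replicate 1, and the adjusted p of 0.048 rose above 0.05 in 6 of the 8 fits that left out 1 library. *XTR6*, also known as *XTH23* and encoding a xyloglucan endotransglucosylase of the cell wall, had 1 read in each of the wild-type libraries against 15, 11 and 10 in *vtc2-4* and 10, 10 and 6 in *vtc3-3*. The ratio of pooled, depth-scaled reads was 8.84, with a 95% interval of 2.35 to 74.6 that covers counting error only. Wild-type replicate 1 had 7 reads, and the gene was not tested once that library was added. *EARLI1*, which encodes a secreted lipid-transfer-like protein, was at 0.795 and 0.518 CPM in wild-type replicates 2 and 3, 10.2, 2.24 and 2.02 for *vtc2-4*, and 10.1, 3.89 and 5.02 for *vtc3-3*, a ratio of 8.88 (4.24 to 22.3). Replicate 1 of each mutant was well above its other replicates, and the call was lost without *vtc3-3* replicate 1 or either wild-type library.

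**Figure D2:**
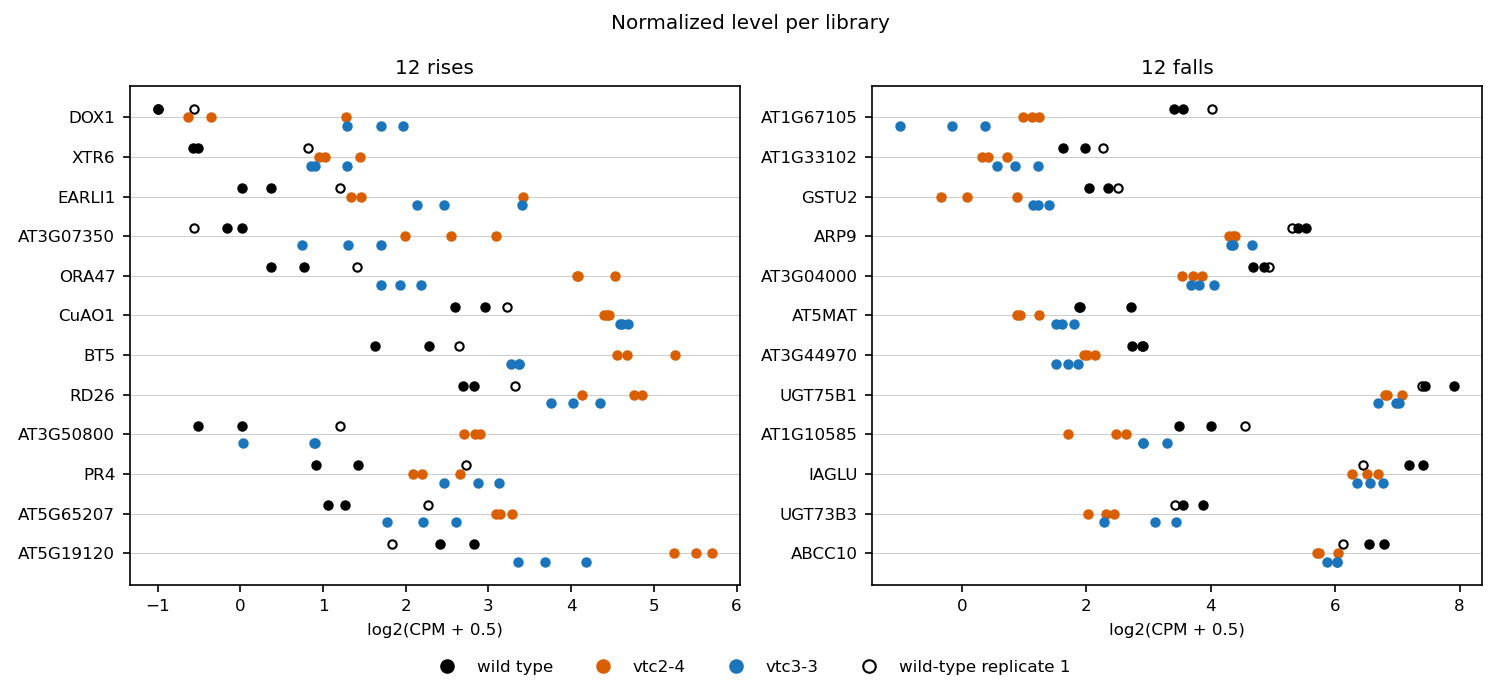
Level of the same 24 genes in each library, as log2 of the TMM-normalized CPM plus 0.5 (x axis), with the wild type in black, *vtc2-4* in orange and *vtc3-3* in blue. Filled points are the 8 libraries of the comparison, where the mutants do not overlap the wild type; the open points, wild-type replicate 1, overlap the mutant range for *PR4*, *AT3G50800*, *AT5G65207* and *IAGLU*, among others.

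Of these 24 genes, 5 rises and 6 falls overlap another annotated gene in TAIR10.1. The library kit does not mark strand, so reads of such a gene and its neighbour cannot be told apart where they overlap. Among the rises these are *EARLI1*, *ORA47*, *BT5*, AT3G50800 and AT5G65207, and among the falls *GSTU2*, AT3G04000, *UGT75B1*, AT1G10585, *IAGLU* and *UGT73B3*.

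*RD26* and *PR4* rose in both mutants, each passing in *vtc2-4* and in *vtc3-3* alone. In the hormone response lists, 11.1% of 18 abscisic acid genes tested, 7.14% of 14 salicylic acid genes and 0 of 16 jasmonate genes passed. The share of all genes was 2.4%. *RD26*, a NAC transcription factor gene induced by dehydration and abscisic acid, was at 5.96 and 6.56 CPM in wild-type replicates 2 and 3, 28.6, 26.6 and 17 for *vtc2-4*, and 19.9, 15.8 and 13 for *vtc3-3*. Every mutant value was at least 13 CPM while no wild-type value exceeded 9.53 CPM, replicate 1 included. The mean effect was 1.67 ± 0.23 (edgeR adjusted p = 0.00018), with 1.94 ± 0.24 in *vtc2-4* and 1.41 ± 0.26 in *vtc3-3*. *RD26* was the single rise in a list of 18 abscisic acid response genes tested, whose median was -0.11, from -0.52 in *vtc2-4* and 0.35 in *vtc3-3*. The phosphatase gene *HAB1* fell in this list (-0.4 ± 0.09), with -0.63 in *vtc2-4* and -0.17 in *vtc3-3* (edgeR adjusted p = 0.69). The pathogenesis-related gene *PR4*, which encodes a hevein-like chitin-binding protein, was at 2.19 and 1.38 CPM in wild-type replicates 2 and 3, 5.79, 4.07 and 3.75 for *vtc2-4*, and 8.23, 6.81 and 5.02 for *vtc3-3*. It rose by 1.66 ± 0.33 (adjusted p = 0.0058), but wild-type replicate 1 was at 6.11 CPM, inside the mutant range, and the call was lost without wild-type replicate 3.

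*ORA47*, an AP2/ERF transcription factor gene tied to jasmonate synthesis, showed one of the largest rises and one of the clearest differences between mutants. Its level was 0.795 and 1.21 CPM in wild-type replicates 2 and 3, 22.6, 16.4 and 16.3 for *vtc2-4*, and 4.05, 3.31 and 2.74 for *vtc3-3*. The mean effect of 2.95 ± 0.34 (adjusted p = 2.3e-05 in edgeR) combined 4.15 ± 0.3 in *vtc2-4* and 1.76 ± 0.42 in *vtc3-3*. *ERF104*, another ethylene-response-factor gene, was at 3.97 and 2.76 CPM in wild-type replicates 2 and 3, 35.5, 42.4 and 30.3 for *vtc2-4*, and 7.18, 5.64 and 5.48 for *vtc3-3*, and its mean effect was 2.17 ± 0.23 (adjusted p = 1.4e-05). In *vtc3-3* alone neither passed (adjusted p = 0.062 and 0.25). They belong to a list of 20 tested genes of the rapid response to touch and wounding, of which 8 rose (40%, against 1.03% of all genes) and none fell, and whose median was 0.86 against 0.01 for all genes. The list moved in 1 mutant more than the other, with a median of 1.7 in *vtc2-4* and 0.28 in *vtc3-3*, and only *ORA47*, *ERF104* and the CCCH zinc finger gene *CZF1* were apart in every mutant library. *TCH4*, a touch-induced cell wall enzyme gene, had a mean effect of 1.09 ± 0.12 (adjusted p = 1.7e-05) made of 1.95 in *vtc2-4* and 0.24 in *vtc3-3*, and was not a member. The 16 jasmonate synthesis and response genes tested gave no call, with a median of 0.03, and *JAZ7*, the one with the largest fitted value, did not pass (adjusted p = 0.1).

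Of 5 BTB and TAZ domain genes tested, 2 rose and 1 fell as members (40% and 20%, against 0.715% and 1.2% of all genes). *BT5*, which encodes a BTB and TAZ domain scaffold protein, was at 4.37 and 2.59 CPM in wild-type replicates 2 and 3, 37.8, 25 and 23.1 for *vtc2-4*, and 9.8, 9.15 and 9.82 for *vtc3-3*. Its mean effect was 2.27 ± 0.27 (edgeR adjusted p = 3.4e-05), with 3.05 ± 0.26 in *vtc2-4* and 1.48 ± 0.32 in *vtc3-3*. Its paralogue *BT2*, named here after its values were seen, rose by 1.68 ± 0.21 (adjusted p = 5.6e-05), while *BT3* fell (-0.7 ± 0.18, adjusted p = 0.047). The aspartyl protease family gene AT5G19120 was at 6.56 and 4.83 CPM in wild-type replicates 2 and 3, 51.6, 45 and 37.3 for *vtc2-4*, and 17.6, 9.73 and 12.3 for *vtc3-3*, for a mean effect of 2.13 ± 0.23 (adjusted p = 1.2e-05). All 6 mutant libraries of *BT5* and AT5G19120 were above the 3 wild-type libraries, with *vtc3-3* in between the wild type and *vtc2-4*.

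Kelch-repeat F-box proteins of the KISS ME DEADLY family target cytokinin-response regulators and phenylalanine ammonia-lyase for degradation, and the genes of 2 of them rose. *KMD4* (AT3G59940) was at 34.2 and 38.1 CPM in wild-type replicates 2 and 3, 152, 158 and 131 for *vtc2-4*, and 88.8, 71.8 and 62.1 for *vtc3-3*. It rose by 1.54 ± 0.12 (edgeR adjusted p = 1.8e-07), with each mutant passing alone at 2.6e-09 and 0.00036. *KMD1* (AT1G80440) was at 7.75 and 6.38 CPM in wild-type replicates 2 and 3, 50.8, 54.4 and 35.5 for *vtc2-4*, and 15.3, 8.56 and 9.82 for *vtc3-3*, with a mean effect of 1.74 ± 0.24 (adjusted p = 0.00018) that in *vtc3-3* alone did not pass (adjusted p = 0.4). *KMD2* (AT1G15670), another of the family, had 1.11 ± 0.47 and did not pass (adjusted p = 0.32), with no difference detected between mutants (adjusted p = 0.58). Of 23 dark and sugar starvation genes tested, 4 rose (*KMD1*, *KMD4*, *DIN10* and *BZIP53*) and 1 fell (*PPDK*), a share of 21.7% against 2.4% of all genes, and 2 of the rises were apart in every mutant library. The list's median was 0.38, and 0.34 with wild-type replicate 1 added. *ASN1*, the dark-induced asparagine synthetase gene often used as a starvation marker, had a value of 0.38 ± 0.31 and did not pass (adjusted p = 0.69).

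Members of smaller families stood out among the rises when genes were grouped by RefSeq product name, a grouping chosen after the values were seen. Genes with a DUF506 domain, of unknown function, gave 3 of 9 tested (33.3%), against 0.715% of all genes that were higher and apart. These were AT3G07350, AT2G20670 and AT4G32480. AT2G20670 was at 11.3 and 7.76 CPM in wild-type replicates 2 and 3, 98.1, 94.4 and 66.7 for *vtc2-4*, and 28.3, 16.2 and 19.6 for *vtc3-3*, a mean effect of 2.21 ± 0.23 (edgeR adjusted p = 6.7e-06). LOB domain genes gave 3 of 8, namely *LBD37*, *LBD38* and *LBD39*, which encode repressors of nitrate-responsive genes and of anthocyanin synthesis. *LBD37* was at 62.2 and 63.2 CPM in wild-type replicates 2 and 3, 113, 117 and 107 for *vtc2-4*, and 83.7, 85.1 and 88.4 for *vtc3-3*. Its replicates were tight, and the mean effect of 0.64 ± 0.07 had an adjusted p of 6.9e-06 in edgeR, with a larger rise in *vtc2-4* (0.84) than in *vtc3-3* (0.45, adjusted p of the difference 0.00024). Also higher were 2 of 5 BTB and TAZ domain genes, 3 of 43 CCCH zinc finger genes and 4 of 45 AP2/ERF genes. The last group included *DEWAX* (AT5G61590), a repressor of wax synthesis genes, at 11.7 and 11.4 CPM in wild-type replicates 2 and 3, 80.9, 76 and 61.2 for *vtc2-4*, and 30.8, 25.1 and 20.1 for *vtc3-3*, a mean effect of 1.91 ± 0.16 (adjusted p = 7.2e-07).

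Genes of 6 families that include enzymes and transporters of detoxification made up 41 of the 211 lower members. The families were taken by product name, so not every member has that role. The products of *IAGLU*, *UGT78D1* and *CYP89A9*, for example, act on auxin, on flavonols and in chlorophyll breakdown. The families were counted after their values were seen, and of their 309 tested genes these 41 were lower and apart while 2 were higher. By family these were 14 of 84 UDP-glycosyltransferase genes (16.7%), 10 of 117 cytochrome P450 genes (8.55%), 5 of 41 glutathione transferase genes (12.2%), 6 of 13 ABCC transporter genes (46.2%), 4 of 37 MATE efflux carrier genes (10.8%) and 2 of 17 aldo-keto reductase genes (11.8%), against 1.2% of all genes. The families as a whole moved little. Their medians ran from -0.23 for the ABCC transporters to 0.02 for the glutathione transferases, so the falls concern some members of each. With wild-type replicate 1 added they ran from -0.3 for the glutathione transferases to 0.03 for the cytochromes P450.

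**Figure D3:**
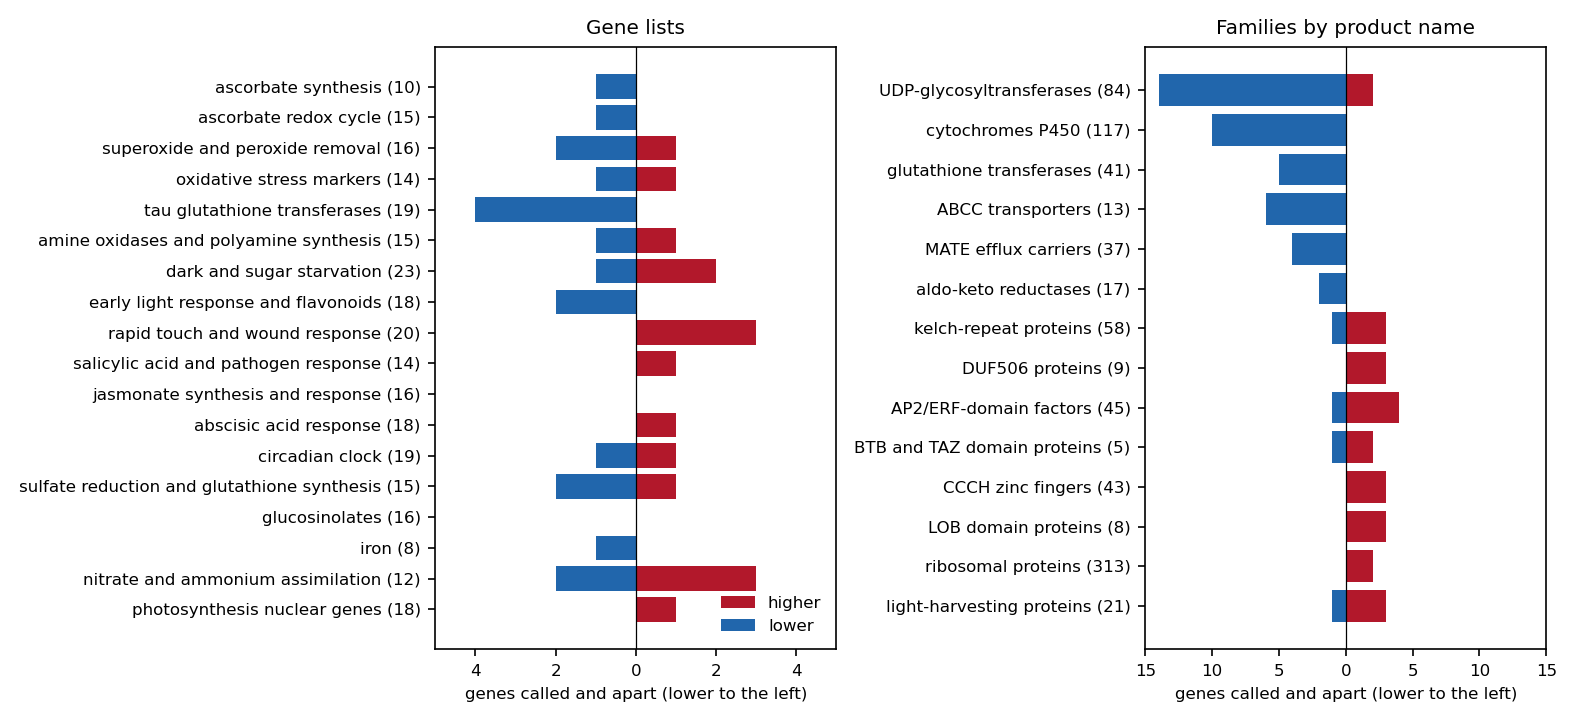
Number of genes that passed the threshold and were apart in every mutant library, higher (red, to the right) or lower (blue, to the left), in each gene list (left) and in each family by product name (right), with the number tested in brackets. UDP-glycosyltransferases (14 lower), cytochromes P450 (10) and ABCC transporters (6) gave the most falls; the touch and wound list and the nitrate and ammonium list gave 3 rises each. The lists and families were chosen with earlier results of these data known.

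The glycosyltransferase genes *UGT75B1* and *IAGLU* fell to a similar degree in both mutants. *UGT75B1* was at 241 and 174 CPM in wild-type replicates 2 and 3, 114, 135 and 111 for *vtc2-4*, and 130, 126 and 103 for *vtc3-3*. All mutant values were below the wild type, the mean effect was -0.78 ± 0.1 (edgeR adjusted p = 6.6e-05), and the effect was -0.78 in each mutant. *IAGLU*, which encodes an enzyme that joins glucose to the auxin indole-3-acetic acid, was at 169 and 146 CPM in wild-type replicates 2 and 3, 76.6, 103 and 91.2 for *vtc2-4*, and 93.8, 109 and 81.1 for *vtc3-3*. It fell by 0.76 ± 0.09 on the log2 scale (adjusted p = 5.5e-05), although wild-type replicate 1, at 87 CPM, lay within the mutant range. *UGT73B3*, induced by pathogens and known to act on flavonoids, was at 14.1 and 11.2 CPM in wild-type replicates 2 and 3, 3.56, 4.91 and 4.47 for *vtc2-4*, and 8.1, 10.3 and 4.34 for *vtc3-3*. Here *vtc2-4* fell further than *vtc3-3*, with -1.54 ± 0.25 in *vtc2-4* and -0.7 ± 0.24 in *vtc3-3*, and the mean effect was -1.12 ± 0.21 (adjusted p = 0.0046). Its neighbour *UGT73B2* fell too (-0.85 ± 0.15, adjusted p = 0.0018). The 2 glycosyltransferase genes that rose were *UGT73C6* (0.67 ± 0.16) and AT2G18560 (0.68 ± 0.16).

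ABCC transporters carry glutathione and other conjugates into the vacuole. *ABCC10* was at 110 and 93 CPM in wild-type replicates 2 and 3, 65.7, 53 and 51.7 for *vtc2-4*, and 64.7, 58 and 64.6 for *vtc3-3*. It fell by 0.77 ± 0.09 (edgeR adjusted p = 1.7e-05) with no difference detected between mutants (0.46), and wild-type replicate 1, at 69.4 CPM, was lower than the other wild-type libraries but above every mutant library. *ABCC4* followed, with a mean effect of -0.7 ± 0.08 (adjusted p = 1.6e-05), and *ABCC12* and *ABCC8* with -0.46 ± 0.07 and -0.48 ± 0.07. In wild-type replicate 1 *ABCC4* was at 17.4 CPM, below every mutant library, which started at 34.6 CPM. *ABCC2* and *ABCC1*, the vacuolar transporters of phytochelatin and other conjugates, changed least (-0.39 ± 0.07 and -0.22 ± 0.06).

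The glutathione transferases that fell were mostly of the tau class, where 4 of 19 tested genes were lower (21.1%, against 1.37% of all genes) and none higher, with a list median of -0.09. *GSTU1* was at 38.4 and 29.3 CPM in wild-type replicates 2 and 3, 22.1, 24.4 and 19.3 for *vtc2-4*, and 21.2, 20.2 and 16.7 for *vtc3-3*. The mean effect was -0.7 ± 0.12 (edgeR adjusted p = 0.0018), and *GSTU7* had -0.72 ± 0.14 (adjusted p = 0.0046) and *GSTU16* -0.39 ± 0.1 (adjusted p = 0.044). *GSTU2* was scarce, at 4.57 and 3.62 CPM in wild-type replicates 2 and 3, 1.34, 0.561 and 0.288 for *vtc2-4*, and 1.7, 2.14 and 1.83 for *vtc3-3*, and fell by 1.79 ± 0.36 (adjusted p = 0.0061). For these 4 genes wild-type replicate 1 was the highest of all 9 libraries, with 84.5 CPM for *GSTU1*, 101 for *GSTU7*, 89.3 for *GSTU16* and 5.21 for *GSTU2*. It was also highest for some tau genes that did not pass, such as *GSTU5* (591 CPM) and *GSTU19* (1030 CPM), but not for *GSTU13*. With that library added, none of the 4 passed (edgeR adjusted p = 0.19 for *GSTU1*, 0.17 for *GSTU7*, 0.34 for *GSTU16* and 0.073 for *GSTU2*). *GSTU1*, *GSTU2* and *GSTU7* belong to 1 tandem cluster of similar genes, so reads may be shared, and their calls were the same with uniquely mapped reads alone. The calls of *GSTU1*, *GSTU2* and *GSTU7* were lost without wild-type replicate 2, and that of *GSTU2* also without replicate 3. The call of *GSTU16* was lost in 6 of the 8 fits that left out 1 library.

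Other enzymes that act on carbonyls and plant metabolites fell as well. AT3G04000, a short-chain dehydrogenase-like gene with an NAD(P)-binding fold, was at 28.6 and 25.2 CPM in wild-type replicates 2 and 3, 12.6, 14 and 11.1 for *vtc2-4*, and 12.4, 13.6 and 16 for *vtc3-3*, and its mean effect was -1.03 ± 0.12 (edgeR adjusted p = 3.4e-05). The beta-glucosidase gene *BGLU11* was at 118 and 115 CPM in wild-type replicates 2 and 3, 60.4, 70.3 and 54.5 for *vtc2-4*, and 77.2, 69.3 and 69.2 for *vtc3-3*, a mean effect of -0.8 ± 0.08 (adjusted p = 3e-06). Both sets of mutant libraries kept well clear of all 3 wild-type libraries. The reductase genes *ChlAKR*, *AKR4C8* and *AER*, whose products reduce reactive carbonyls, had mean effects of -0.83 ± 0.1, -0.52 ± 0.07 and -0.48 ± 0.07. *NIT4*, which detoxifies beta-cyanoalanine, had -0.7 ± 0.09, and the stress-induced transcription factor gene *NAC032* had -0.76 ± 0.14 (adjusted p = 0.00015 and 0.0022). These genes were named after their values were seen. *AT5MAT*, an anthocyanin malonyltransferase gene, was at 3.18 and 6.04 CPM in wild-type replicates 2 and 3, 1.34, 1.4 and 1.87 for *vtc2-4*, and 2.35, 2.53 and 2.97 for *vtc3-3*, and its adjusted p of 0.028 rose to 0.71 without wild-type replicate 3.

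Among the members other than *VTC2* and *VTC3*, the lowest fitted mean effect was that of AT1G67105, a locus annotated as noncoding RNA, on chromosome 1 from 25057479 to 25058264. It was at 10.1 and 11.2 CPM in wild-type replicates 2 and 3, 1.48, 1.68 and 1.87 for *vtc2-4*, and 0.784, 0.389 and 0 for *vtc3-3*, with 15.8 CPM in wild-type replicate 1. The fall was deep in both lines and deeper in *vtc3-3*, with -2.65 ± 0.3 in *vtc2-4* and -4.47 ± 0.39 in *vtc3-3* (edgeR adjusted p of the mean 3.3e-07, of the difference 0.036). *ARP9*, an actin-related protein gene on chromosome 5 from 17469490 to 17473619, was at 41.7 and 45.6 CPM in wild-type replicates 2 and 3, 20.5, 20.1 and 19.2 for *vtc2-4*, and 20, 19.5 and 24.9 for *vtc3-3*. Its level was about the same in both mutants and its mean effect was -1.09 ± 0.1 (adjusted p = 1.2e-06). *MRD1* met the rule through *vtc3-3*, where it was at 0.261, 1.75 and 1.37 CPM against 25.5 to 29.4 in *vtc2-4* and 30.6 and 31.7 in the wild type. The *vtc2-4* value was -0.16 (adjusted p = 0.62).

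A mean of both mutants can rest on 1 of them, and the rule for naming genes picked examples. AT3G50800, of unknown function, rose by 4.07 ± 0.47 in *vtc2-4* and had 1.39 ± 0.69 in *vtc3-3* (edgeR adjusted p = 0.59), and the mutants differed (adjusted p = 1.6e-05). These values rest on 1 and 3 reads in wild-type replicates 2 and 3. The mean effect of 2.73 ± 0.55 ran from 2.26 to 3.56 with 1 library left out, the call was lost without either wild-type library, and with wild-type replicate 1 added the value was 1.58 (adjusted p = 0.44). *PI4Kγ1* (AT2G40850), a phosphoinositide 4-kinase gene, overlaps *VTC3* in TAIR10.1 but not in the gene positions deposited with the counts. Whether reads were shared between them was not tested. *PI4Kγ1* had no read in the 3 *vtc3-3* libraries and 19 to 31 reads in *vtc2-4*, beside 15 and 25 in the wild type. It passed in the mean (adjusted p = 0.0011) but its libraries overlapped, so it was not a member.

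Genes of ascorbate synthesis and of its redox cycle gave few calls and small effects in the mean, apart from *VTC2* itself. Of 10 ascorbate synthesis genes tested, only *VTC2* passed, and the other 9 had values from -0.08 to 0.08. Of 15 genes of the ascorbate redox cycle, *GR1*, the cytosolic and peroxisomal glutathione reductase gene, fell. It was at 321 and 303 CPM in wild-type replicates 2 and 3, 203, 220 and 222 for *vtc2-4*, and 286, 286 and 272 for *vtc3-3*, a mean effect of -0.34 ± 0.05 (edgeR adjusted p = 0.00056) that was larger in *vtc2-4* than in *vtc3-3* (-0.53 and -0.15). *GR1* was the only call of the 15 (6.67%, against 2.4% of all genes), and the list's median was -0.08. All 6 mutant libraries were below both wild-type libraries for 4 of the 15 genes, against 5.93% of all genes. *DHAR2*, 1 of these 4, did not pass, at -0.34 ± 0.11 (edgeR adjusted p = 0.13).

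Among 16 genes for removal of superoxide and peroxide, 2 rose and 2 fell (25% called, against 2.4% of all genes), and the list's median was -0.03. *CSD2*, the plastid copper and zinc superoxide dismutase gene, was at 153 and 171 CPM in wild-type replicates 2 and 3, 261, 216 and 236 for *vtc2-4*, and 197, 195 and 189 for *vtc3-3*, a mean effect of 0.41 ± 0.07 (edgeR adjusted p = 0.0013). The gene of its copper chaperone, *CCS*, rose with it (0.54 ± 0.1, adjusted p = 0.002) and the cytosolic *CSD1* passed but was not apart. *FSD1*, the iron superoxide dismutase gene, moved the other way. It was at 629 and 619 CPM in wild-type replicates 2 and 3, 425, 470 and 433 for *vtc2-4*, and 514, 517 and 557 for *vtc3-3*, with a mean effect of -0.37 ± 0.05 (adjusted p = 0.00024). *CAT2*, the main leaf catalase gene, fell to 2200 ± 245 CPM (SD, n = 3) in *vtc2-4* and 2420 ± 79.9 CPM (SD, n = 3) in *vtc3-3*, from 3090 and 2710 CPM in the wild type, with an adjusted p of 0.0074 in edgeR. In wild-type replicate 1 it was at 1230 CPM, and with that library the mean effect was -0.02. The ferritin gene *FER1*, which encodes a plastid iron store, was at 1960 and 2030 CPM in wild-type replicates 2 and 3, 1190, 1440 and 1450 for *vtc2-4*, and 1710, 1520 and 1370 for *vtc3-3*, and fell by 0.46 ± 0.07 on the log2 scale (adjusted p = 0.00073). *DIC2*, a mitochondrial dicarboxylate carrier gene that responds to many stresses, rose by 1.22 ± 0.18 in the mean (adjusted p = 0.00044). Its effect was 1.93 ± 0.18 in *vtc2-4* and 0.51 ± 0.22 in *vtc3-3*, where it did not pass (edgeR adjusted p = 0.47). The mutants differed in *DIC2* (adjusted p = 2.3e-06). Neither *ZAT12* nor *ZAT10*, zinc finger genes induced by hydrogen peroxide and light stress, passed in the mean (0.56 ± 0.25 and 0.71 ± 0.28). *ZAT10* rose in *vtc2-4* (1.71 ± 0.26, edgeR adjusted p = 0.00026) and had -0.29 ± 0.34 in *vtc3-3*, and the mutants differed in it (adjusted p = 1.4e-05). *DIC2*, *FER1*, *ZAT12* and *ZAT10* belong to another list, of 14 tested oxidative stress markers. Of these 1 rose and 1 fell (14.3% called, against 2.4% of all genes), with values from -0.46 to 2.07. The median of that list was 0.17, and -0.15 with wild-type replicate 1 added.

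Nitrogen and sulfur assimilation genes moved in both directions. Of 12 nitrate and ammonium genes tested, 7 passed (58.3%, against 2.4% of all genes), 4 higher and 3 lower, and the list's median was -0.02. The nitrite reductase gene *NIR1* rose by 0.2 ± 0.05 and the nitrate reductase gene *NIA1* by 0.47 ± 0.11, the latter not apart in every library. The call of *NIR1*, with an adjusted p just under 0.05, was lost in 6 of the 8 fits that left out 1 library. *GLU1*, which encodes ferredoxin-dependent glutamate synthase, fell by 0.27 ± 0.05 and *GSR2*, a cytosolic glutamine synthetase gene, by 0.28 ± 0.05 (edgeR adjusted p = 0.0017 and 0.0035). With wild-type replicate 1 added, *GLU1* was at 0.03. Among 15 genes of sulfate reduction and glutathione synthesis, the adenylylsulfate reductase genes *APR3* and *APR2* fell (-0.39 ± 0.06 and -0.24 ± 0.06) and *LSU2*, a marker of sulfur deficiency, rose (0.56 ± 0.11). These calls were 20% of the list, against 2.4% of all genes. *LSU2* stood at 60.6 CPM in wild-type replicate 1, above every mutant library, so its direction turned once that library was added (-0.2). The call of *APR2* was lost in 6 of the 8 fits that left out 1 library.

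The list of early light response and flavonoid genes gave falls only. Of 18 tested, 5 fell (27.8%, against 1.37% of all genes). The list's median was -0.13, from -0.33 in *vtc2-4* and 0 in *vtc3-3*. Of the 5 genes, 2 were members, *ELIP2* and the flavonol glycosyltransferase gene *UGT78D1*. The call of *UGT78D1* was lost in 7 of the 8 fits that left out 1 library. *ELIP2*, which encodes an early light-induced thylakoid protein, was at 45.3 and 49.7 CPM in wild-type replicates 2 and 3, 17.7, 20.2 and 20.2 for *vtc2-4*, and 32.1, 35 and 39.7 for *vtc3-3*. It fell by 0.86 ± 0.09 (edgeR adjusted p = 1.6e-05), more in *vtc2-4* (-1.3) than in *vtc3-3* (-0.43). *ELIP1* and the anthocyanin regulator gene *PAP1* passed in the mean with -1.2 and -1.47 in *vtc2-4*, against 0.05 and -0.24 in *vtc3-3*. Of 21 light-harvesting genes by product name, 4 were higher and 2 lower, and the median was 0.12, from 0.23 in *vtc2-4* and 0.03 in *vtc3-3*. Of the 21, 14.3% were higher members and 4.76% lower members, against 0.715% and 1.2% of all genes. The higher members among them, *LHCB2.3*, *LHCB3* and *LHCB4.2*, had mean effects of 0.41 ± 0.07, 0.23 ± 0.06 and 0.33 ± 0.06. The median of 18 photosynthesis genes was 0.05. Of 19 clock genes, only *PRR5* (0.42 ± 0.1) and *PRR9* (-0.35 ± 0.08) passed in the mean, where 2.4% of all genes passed. These calls were lost in 5 and 4 of the 8 fits that left out 1 library. *PRR5* had 0.65 ± 0.11 in *vtc2-4* and 0.18 ± 0.12 in *vtc3-3*. *PRR9* had -0.55 ± 0.09 in *vtc2-4* and -0.15 ± 0.09 in *vtc3-3*. In *vtc3-3* alone neither passed (edgeR adjusted p = 0.72 and 0.71), and the mutants differed in both (adjusted p = 0.0037 and 0.0064). In the salicylic acid list *WRKY70*, a transcription factor gene of that pathway, was the single call of 14, at 8.35 and 6.73 CPM in wild-type replicates 2 and 3, 44.5, 40.3 and 32 for *vtc2-4*, and 8.88, 10.3 and 19 for *vtc3-3*, a mean effect of 1.53 ± 0.24 (adjusted p = 0.00062). The effect on *WRKY70* was 2.37 ± 0.23 in *vtc2-4* and 0.69 ± 0.28 in *vtc3-3*, where it did not pass (edgeR adjusted p = 0.45). The mutants differed in it (adjusted p = 4.7e-06). Wild-type replicate 1 was at 20.5 CPM, above the 3 *vtc3-3* libraries. No glucosinolate gene of 16 passed.

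Promoters of the members were searched for 5 short motifs, on both strands, in 300 bases from 250 before to 50 after the annotated gene start in TAIR10.1. The motifs were the G-box CACGTG, the as-1 core TGACG, the W-box core TTGAC, the evening element AAAATATCT, and the sugar-starvation element TATCCA. The as-1 core is the known binding sequence of TGA factors and the last of the 5 has been described in genes repressed by sugar. The as-1 and W-box cores can overlap in the letters TTGACG. Promoters were found for 124 higher and 209 lower members. TATCCA was present in 30.6% of the promoters of higher members, 17.2% of those of lower members and 16.1% of all 27437 promoters, and at least 2 copies were present in 6.45%, 0.957% and 1.72%. The evening element was present in 7.26%, 3.83% and 2.82%. TGACG was present in 24.2% and 28.7% of the promoters of higher and lower members and in 23.1% of all promoters. In the 41 lower members of the 6 families counted above by product name it was present in 31.7%, and in 12.2% at least 2 copies were found, against 4.44% of all promoters. The shares of the G-box (9.68%, 9.57% and 7.68%) and of the W-box core (50%, 53.6% and 50.5%) were close together. These are counts of letters, given with no test.

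**Figure D4:**
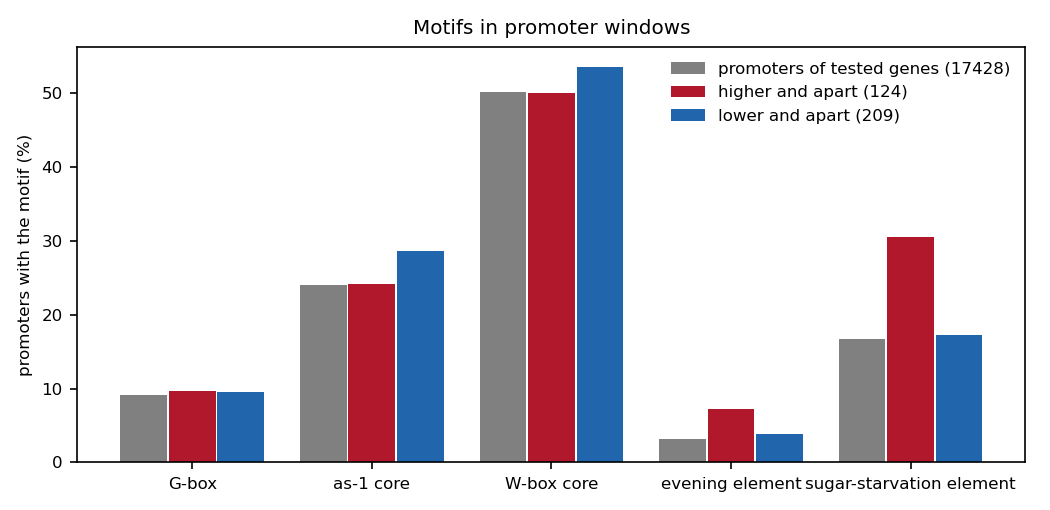
Share of promoter windows (y axis, in percent) that hold each motif on either strand, for the promoters of all tested genes (gray), of the higher members (red) and of the lower members (blue), with their numbers in brackets. TATCCA was found in 30.6% of the promoters of higher members against 16.7% of those of tested genes; the bars of the G-box and the W-box core are close together.

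The 250 bases before the start of a few members are shown to let the motifs be seen in place, 5′ to 3′ in the direction of the gene, in TAIR10.1. For the rises *BT5* (chr4:17672354-17672603, minus strand), AT5G19120 (chr5:6414238-6414487, plus strand) and *KMD1* (chr1:30241202-30241451, plus strand), whose levels were given above, capitals mark TATCCA or its reverse complement. For the falls *GSTU1* (chr2:12632539-12632788, minus strand), *IAGLU* (chr4:8879328-8879577, minus strand) and *UGT73B3* (chr4:16344819-16345068, minus strand), capitals mark TGACG or its reverse complement. They were chosen after the search because they hold the motif and because these 250 bases overlap no other annotated gene, although the bodies of *BT5*, *IAGLU* and *UGT73B3* do.
BT5: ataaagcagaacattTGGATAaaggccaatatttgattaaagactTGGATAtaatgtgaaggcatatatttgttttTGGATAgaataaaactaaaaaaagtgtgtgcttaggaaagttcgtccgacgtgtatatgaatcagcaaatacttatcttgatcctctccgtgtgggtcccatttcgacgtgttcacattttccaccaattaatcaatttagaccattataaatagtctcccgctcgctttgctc
AT5G19120: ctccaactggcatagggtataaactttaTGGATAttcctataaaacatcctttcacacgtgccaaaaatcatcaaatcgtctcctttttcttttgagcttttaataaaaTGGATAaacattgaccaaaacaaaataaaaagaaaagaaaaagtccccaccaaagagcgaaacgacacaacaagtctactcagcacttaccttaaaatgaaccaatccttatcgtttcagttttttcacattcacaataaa
KMD1: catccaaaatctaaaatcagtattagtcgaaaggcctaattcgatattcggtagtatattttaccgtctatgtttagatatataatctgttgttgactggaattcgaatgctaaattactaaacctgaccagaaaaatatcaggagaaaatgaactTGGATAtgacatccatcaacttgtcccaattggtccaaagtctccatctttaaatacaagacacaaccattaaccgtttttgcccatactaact
GSTU1: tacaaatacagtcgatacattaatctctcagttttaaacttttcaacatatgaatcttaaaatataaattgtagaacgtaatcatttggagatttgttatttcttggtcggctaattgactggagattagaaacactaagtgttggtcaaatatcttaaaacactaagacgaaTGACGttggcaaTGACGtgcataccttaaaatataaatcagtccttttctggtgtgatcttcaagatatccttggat
IAGLU: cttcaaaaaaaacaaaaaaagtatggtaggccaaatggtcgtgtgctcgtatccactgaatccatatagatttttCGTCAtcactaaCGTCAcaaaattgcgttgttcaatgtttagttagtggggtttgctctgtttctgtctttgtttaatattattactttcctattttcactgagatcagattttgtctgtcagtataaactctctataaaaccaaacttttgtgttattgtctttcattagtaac
UGT73B3: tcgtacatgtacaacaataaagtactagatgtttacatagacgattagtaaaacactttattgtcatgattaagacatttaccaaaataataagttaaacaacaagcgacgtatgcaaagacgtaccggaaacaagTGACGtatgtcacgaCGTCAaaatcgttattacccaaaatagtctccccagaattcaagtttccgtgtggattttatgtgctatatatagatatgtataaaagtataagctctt
The promoter of *BT5* holds 3 copies, all in the same orientation, and that of AT5G19120 holds 2. In each of the 3 falling genes 2 TGACG cores lie close together.

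Adding wild-type replicate 1 changed the result more than any other choice of libraries. With 9 libraries the biological coefficient of variation rose from 0.0521 to 0.186, 31 genes passed the threshold (0.178% of 17388 tested), 22 higher (0.127%) and 9 lower (0.0518%), and 25 were both called and apart, all of them among the 337. The members kept in this way were 18 rises and 7 falls. The rises included *CuAO1* (mean effect 1.64, edgeR adjusted p = 0.0032), *ERF104* (2.07, 0.0037), *KMD4* (1.41, 0.0075), *ORA47* (2.49, 0.014), AT5G19120 (2.35, 0.012), *BT5* (1.97, 0.024) and *LBD37* (0.7, 0.024). The falls were AT1G67105, *MRD1*, *ARP9*, AT3G04000, *ELIP2*, *BGLU11* and AT3G44970, a cytochrome P450 gene. Of the members tested again, 115 of 125 higher and 201 of 211 lower ones kept their direction. The new library was on the wild-type side of all mutant libraries for 59 of the 125 (47.2%) and 98 of the 211 (46.4%), where 2.29% and 2.35% of all genes tested with 9 libraries were apart. Among the genes apart with 8 libraries but not called, the shares were 41.9% and 36.7%. Exon length moved with these values. The mean effect over all genes correlated with log2 exon length at -0.114 with 8 libraries (17631 genes) and 0.387 with 9, and the median exon length was 1200 bases for the rises, 1724 for the falls and 1605 for all genes tested. The part of exon length in these results was not tested.

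Leaving out 1 library in turn also took the call from further genes named or plotted. The calls of *XTR6*, AT3G07350, AT3G44970 and *CZF1* were lost without wild-type replicate 2 and again without replicate 3. Those of AT1G10585, *UGT73B3*, *GSR2*, *CSD2*, *CAT2*, *LSU2* and *PPDK* were lost without wild-type replicate 2 and that of *LBD38* without replicate 3. Those of AT1G33102, *AT5MAT* and *LHCB3* were lost in 4 of the 8 fits. Some members named after their values were seen also met both conditions in few of the 8 fits. *BT3* and AT3G28540 did so in 1, *ABCC1*, *AAP2* and *DGAT3* in 2, *LBD39* in 3 and AT2G18560 in 5.

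**Figure D5:**
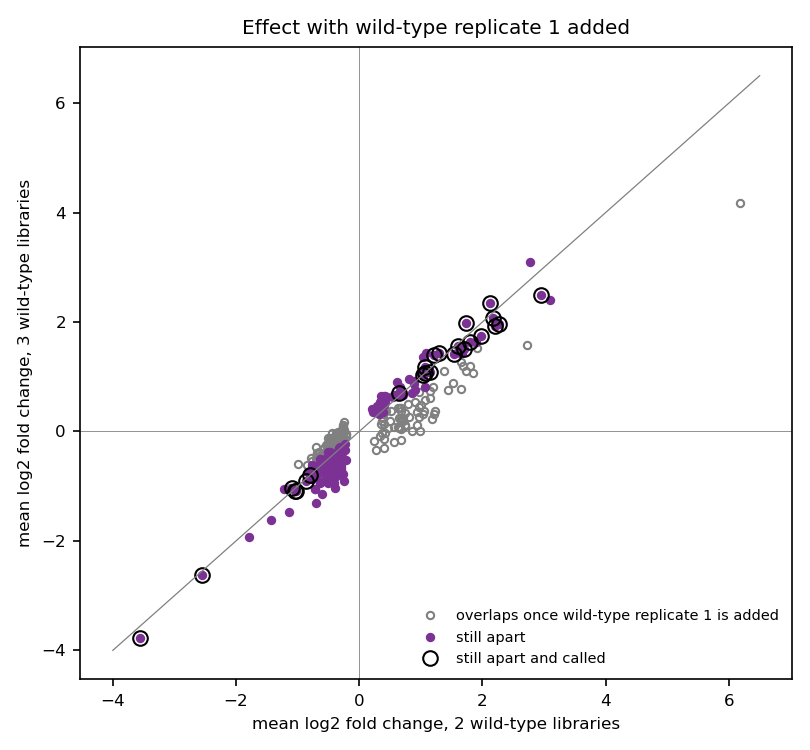
Mean log2 fold change of both mutants with the 2 wild-type libraries of the main comparison (x axis) and with wild-type replicate 1 added (y axis), for the members tested in both fits other than *VTC2* and *VTC3*; the gray line marks equal values. Gray circles overlap the wild type once that library is added, purple points do not, and black rings mark members that also pass the threshold again; the point at the far right is *DOX1*, whose fitted values depend on the prior count.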

How the data were processed

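RNA-seq libraries of 9 shoot samples, described as biological triplicates per genotype, were made with the TruSeq RNA v2 kit, sequenced on a MiSeq, and mapped and counted in CLC Genomics Workbench by the authors; the genome build is not given in the sources used here. The deposited counts are whole reads per gene without normalization, and the deposited RPKM values are exon reads per exon length and library size, used only in an alternative. The exon length, exon number and position columns that the authors deposited are annotation scores. Their fold changes, p-values and FDR values were not used, nor were 122 other per-library columns. Genes were grouped by genotype, filtered by filterByExpr, normalized by TMM and fitted in edgeR 4.0.16 (R 4.3.3) with the quasi-likelihood test over 8 libraries, with Benjamini-Hochberg adjustment over all 17631 genes tested. The contrast was the mean of the *vtc2-4* and *vtc3-3* effects against the wild type. Errors of log2 fold changes are standard errors derived from the test, as the absolute log2 fold change over the square root of its F statistic. They are therefore not independent of the p, and for genes with few reads they depend on the prior count.

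The members, gene lists and the exclusion of wild-type replicate 1 were chosen with earlier results of these data known. Genes named were *VTC2*, *VTC3*, *ACT2*, the 12 rises and 12 falls with the largest effect in the less affected mutant, list members that met both conditions, and 3 rises and 3 falls that differed between mutants; others are given as chosen after their values were seen. Alternatives were other normalizations, filters, thresholds, counts of exon or uniquely mapped reads, DESeq2 1.42.0, edgeR's likelihood-ratio test, limma 3.58.1 on log2 RPKM or with library weights, both mutants as 1 group, a replicate block, and each library left out. Promoters and products came from RefSeq's TAIR10.1 genome and annotation, and all 58 named genes were matched by identifier.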

Additional observations from a re-analysis of the deposited data

Results flagged for a closer look

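For 8 of the 24 genes with the largest effects in the less affected mutant, the effect differed between *vtc3-3* and *vtc2-4* in edgeR's quasi-likelihood test. The contrast compares the mutant libraries only, while its normalization and error came from the fit of all 8 libraries. Given as the log2 fold change of *vtc3-3* minus that of *vtc2-4*, the value was -2.4 ± 0.19 for *ORA47* (adjusted p = 1.1e-07), -1.7 ± 0.16 for AT5G19120 (adjusted p = 6.7e-07), -1.57 ± 0.18 for *BT5* (adjusted p = 7.6e-06) and -2.69 ± 0.32 for AT3G50800 (adjusted p = 1.6e-05). It was -1.53 ± 0.34 for AT3G07350 (adjusted p = 0.0074) and -0.96 ± 0.22 for AT5G65207 (adjusted p = 0.0084). These 6 genes had positive values in both mutants, with the larger in *vtc2-4*, where all 6 passed. In *vtc3-3* alone *BT5* and AT5G19120 passed (adjusted p = 0.032 and 0.029) and the other 4 did not. Among the falls, the value was -1.82 ± 0.51 for AT1G67105 (adjusted p = 0.036), which fell further in *vtc3-3*, and 0.84 ± 0.25 for *UGT73B3* (adjusted p = 0.045), which fell further in *vtc2-4*.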

How the results depend on the processing

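The counts given here are, in order, genes that passed in the mean, genes that passed and were apart in every mutant library, and members of the gene lists that passed, with 424, 337 and 48 in the comparison as reported. Wild-type replicate 1 reduced them to 31, 25 and 9, and with limma weights for library quality, where that library weighed 0.0454, to 396, 166 and 45, of which 150 of the 166 were among the 337. An adjusted p under 0.01 left 246 and 208, a 2-fold minimum left 78, 61 and 14, and no filter on low counts gave 726, 477 and 75. Treating both mutants as 1 group left 22, 22 and 1, where the spread between mutants counts as error. DESeq2 gave 303, 237 and 38 and edgeR's likelihood-ratio test 603, 447 and 63, and limma on log2(RPKM + 0.1) and log2(RPKM + 1) gave 308 and 313 genes, of which 57.5% and 55.6% were higher against 42.9% in the reported fit. Leaving out 1 library gave 197 to 433, 183 to 351 and 26 to 49. The low ends came without wild-type replicate 2 (197, 183 and 26) or replicate 3 (201, 193 and 32), and 265 of the 337 genes passed in all 6 fits without a mutant library but 90 in all 8. Other normalizations and read types gave 422 to 461 genes. Directions turned for *ACT2* (0.25; -0.07 to 0.02 with 1 library left out), AT2G42490 (0.03), *GLU1* (0.03) and *LSU2* (-0.2) with wild-type replicate 1 added. The replicate block gave 376, 276 and 43. Over all genes tested, the deviations of same-numbered libraries from their group means correlated at -0.0315 to 0.0812. The deviations of 2 wild-type libraries mirror each other, and a value over all genes can miss a batch in some. These correlations therefore cannot decide whether the numbers pair samples. At these depths, ratios for genes with few wild-type reads carry wide counting intervals, and 2 wild-type libraries limit every p.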

Other observations

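Further rises among the members, chosen after their values were seen, concerned transcription factors and genes of unknown function that passed the threshold also with wild-type replicate 1 added. *BBX14*, a B-box zinc finger gene of the CONSTANS-like group, was at 63 and 64 CPM in wild-type replicates 2 and 3, 230, 243 and 200 for *vtc2-4*, and 91.7, 86.8 and 86.3 for *vtc3-3*. All 6 mutant values exceeded the 3 wild-type values, and the mean effect was 1.15 ± 0.08 (edgeR adjusted p = 6.3e-08), from 1.82 ± 0.08 in *vtc2-4* and 0.48 ± 0.09 in *vtc3-3*. AT5G60680, which encodes a DUF584 protein of unknown function, was at 18.3 and 19.2 CPM in wild-type replicates 2 and 3, 96.6, 92.7 and 78.4 for *vtc2-4*, and 41.4, 34.1 and 32.2 for *vtc3-3*, a mean effect of 1.61 ± 0.12 (adjusted p = 1.8e-07). *MYB73* had 1.07 ± 0.16 (adjusted p = 0.00035), with the rise in *vtc3-3* (0.32) well short of that in *vtc2-4* (1.83).

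On the falling side, *GT72B1*, a glycosyltransferase gene whose product conjugates chlorinated phenols, was at 149 and 140 CPM in wild-type replicates 2 and 3, 81.5, 86.4 and 87.5 for *vtc2-4*, and 108, 111 and 98.9 for *vtc3-3*, a mean effect of -0.6 ± 0.06 (edgeR adjusted p = 4.7e-06). *CYP89A9*, a cytochrome P450 gene of chlorophyll breakdown, was at 90.2 and 74.4 CPM in wild-type replicates 2 and 3, 42.9, 53.7 and 37.9 for *vtc2-4*, and 58.5, 61.9 and 53.4 for *vtc3-3* and had -0.68 ± 0.1 (adjusted p = 0.00036), with 36.1 CPM in wild-type replicate 1, below all 6 mutant libraries. *CYP72A8* had -0.56 ± 0.08 (adjusted p = 0.00028), and 10 cytochrome P450 genes were members in all, none of them higher. Of 313 ribosomal protein genes tested, 2 were members, both higher, a share of 0.639% against 0.715% of all genes.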
